A study of Mus musculus with 3 samples.

Results

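The nuclear lamina and the LINC complex were followed through 10 genes chosen by function: the lamins Lmna, Lmnb1 and Lmnb2, the SUN proteins Sun1 and Sun2, the nesprins Syne1 and Syne2, and the inner nuclear membrane proteins Emd, Tmpo and Lbr. All 10 were found by symbol among the 56833 genes of the deposited table. A mean of at least 50 normalized counts over the 3 libraries, the minimum for the counts of genes given here, was met by 9 of them, and Syne2 lay below it at 18.6. Lmna was the most abundant of them. Its normalized count was 26.4% higher on stiff than on soft plates, and the ratio of Lmna to the B-type lamins was 18.5% higher. On the log2 scale the Lmna ratio was 0.34, but 0.08 once the level of genes of like transcript length and GC content was subtracted. Tmpo was 19.2% lower on stiff plates. Lmnb1, Lmnb2, Sun1, Sun2, Emd and Lbr differed by at most 7.5% between those plates. Syne1 and Syne2 had the largest ratios of all 10 genes and the fewest reads.

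The lamina is a meshwork of intermediate filament proteins under the inner nuclear membrane. A-type lamins, the products of Lmna, and B-type lamins form separate networks that carry mechanical load and bind chromatin, and A-type lamin is known to be more abundant in stiffer tissues. The LINC complex couples this meshwork to the cytoskeleton: SUN proteins span the inner membrane and hold the short KASH tails of nesprins, which span the outer membrane and reach actin, microtubule motors or, through plectin, intermediate filaments. Emerin, the thymopoietins and the lamin B receptor sit in or at the inner membrane and tether chromatin to the lamina.

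The cells were sorted as tdTomato-positive from ankle synovium of Efhd1CreER; Ai9 mice, and the labels call them telocytes, an interstitial cell type. Ai9 is a tdTomato reporter that Cre recombinase switches on, and CreER is a Cre that needs a ligand to act. Cells were kept for 24 h on plates with a collagen coat, at a stiffness of 0.2 kPa (called soft here), 8 kPa (intermediate) or 64 kPa (stiff), and the genotype, the sort and the collagen coat were common to all 3 groups. The ages and number of the mice and the ligand given are not stated in the sources used here, and up to 2 synovia were digested in 1 tube. Each group was 1 library, so nothing below can be checked against replicates, differences between cultures and between stiffness levels cannot be told apart, and no test was made. In bulk RNA, fewer cells that express a gene and less RNA per cell cannot be told apart either.

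The libraries held 25487064 (soft), 28081600 (intermediate) and 26474862 (stiff) reads on genes. Pdgfra, a marker of fibroblasts and of telocytes, had 4991 to 6681 reads. Of the 7 other telocyte genes, Vim had 91696 to 109270 reads, Pdgfrb 7540 to 8862, Cd34 229 to 310, Foxl1 181 to 247 and Kit 41 to 44. Gli1 had 8 to 12, and Efhd1, the gene that the Cre line is named for, 3 to 10. All 12 macrophage markers had reads in every library, and the sum of the 12 was 30259 normalized counts at 0.2 kPa, 37395 at 8 kPa and 65543 at 64 kPa. All 12 were higher in the stiff than in the soft library, where 48.9% of all genes were lower, with a median log2 ratio of 1.26. Of the 12, 11 were higher by at least 0.5, against 11.8% of all genes. The part of these cells in the lamina and LINC values was not tested. The 5 endothelial markers summed to 39.0 to 52.3 normalized counts, and the 4 Schwann cell markers to 51.3 to 63.6. Of 9 fibroblast genes, Col1a1 alone was higher by at least 0.5 on stiff than on soft plates, where 11.8% of all genes were. Lower by that much were 0 of the 9, against 3.77% of all genes. Of the 9, 4 were below 0, against 48.9% of all genes, and the lowest was Dcn at -0.44. Once the level of genes of like transcript length and GC content was subtracted, Col1a1 stood at 0.44. Then 0 of the 9 passed 0.5, against 7.69% of all genes higher and 3.99% lower. Of 5 mural cell genes, Cspg4 had 1602 to 2648 reads, Notch3 499 to 637, Rgs5 61 to 87, Abcc9 2 to 13 and Kcnj8 0 to 4. Of 6 lymphocyte and granulocyte genes, Cd3e, Cd79a and Cpa3 had no read and Nkg7 had 0 to 1, whereas S100a8 had 197 to 220. Mcpt8, a basophil protease gene, had 1106 (soft), 806 (intermediate) and 724 (stiff), a stiff to soft ratio of -0.61.

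Ratios are log2 of the normalized count plus a pseudocount of 1. Their 95% intervals are exact Clopper-Pearson intervals of the reads in the 2 libraries compared. They cover counting error only, and not the variation between cultures. Over all genes the stiff to soft ratio followed transcript length. Its median was -0.09 for 2466 genes with canonical transcripts under 2000 nt, 0.01 for 6047 genes from 2000 to under 5000 nt, 0.11 for 2827 genes from 5000 to under 10000 nt and 0.32 for 315 genes of 10000 nt and over. For this reason ratios are also given after subtraction of a local fit on transcript length and GC content. The members' transcripts span nearly that whole range, from 1602 nt for Emd to 28591 nt for Syne1.

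**Figure D1:**
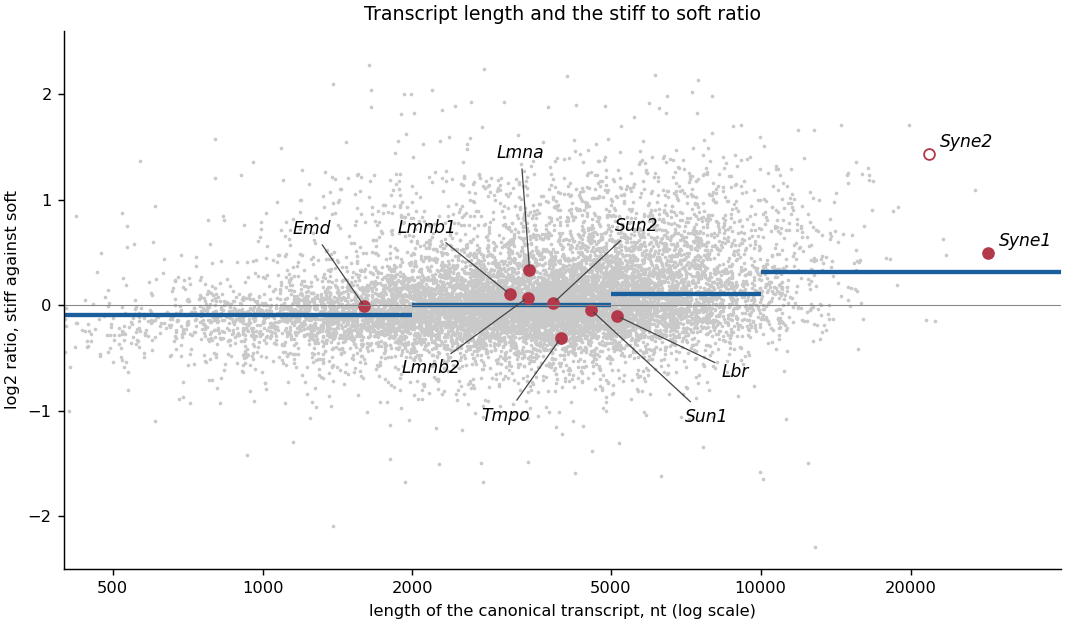
Stiff to soft log2 ratio (y axis) against canonical transcript length in nt (log x axis). Each grey point is 1 of 11611 genes above the minimum mean of 50 normalized counts (44 lie outside the axes), blue lines are the medians of 4 length classes, filled red points are 9 members and the open point is Syne2, which is below that mean. The medians go from -0.09 for the shortest class to 0.32 for the longest, where Syne1 and Syne2 lie. For the 55 genes of that class at a mean of 10 to under 100 the median is 0.06.

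Lmna encodes lamins A and C by alternative splicing. It lies on chromosome 3 from 88387454 to 88417299 (GRCm39, minus strand), and the canonical transcript is 3435 nt in 12 exons. The end of that coding sequence is shown because it sets lamin A apart from lamin C: it encodes the CaaX box, whose cysteine is farnesylated before the prelamin A tail is cut off. The letters are the sense strand, 5′ to 3′, of chr3:88389381-88389655, joined across an exon boundary, with the CaaX codons and the stop codon in capitals.
Lmna: cagagctcccagaacTGCAGCATCATGTAA
Of 11 annotated Lmna transcripts with a complete coding end, 3 have a cysteine codon at that place, and of 13 for Lmnb2, 11 do. The counts were made per gene, so the values below sum lamin A and lamin C.

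Lmna had 14543 normalized counts (soft), 17166 (intermediate) and 18388 (stiff). The order of the values followed the order of stiffness. The log2 ratio to soft was 0.24 for intermediate (interval 0.21 to 0.27) and 0.34 for stiff (0.31 to 0.37), and stiff to intermediate it was 0.10 (0.07 to 0.13). Most of the difference therefore lay between 0.2 and 8 kPa. Of all 11873 genes above the minimum mean, 18.2% had a higher stiff to soft ratio than Lmna, and 14.9% a higher intermediate to soft ratio. With the length and GC fit subtracted the ratios of Lmna were 0.11 for intermediate to soft, 0.08 for stiff to soft and -0.03 for stiff to intermediate. The fit itself, which is the local level of genes of like length and GC content (59.0% for this transcript), was 0.26 for stiff to soft.

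Lmnb1 and Lmnb2 encode the B-type lamins, which stay farnesylated and bound to the membrane. Lmnb1 lies on chromosome 18 at 56840590 to 56886496 (plus strand), and Lmnb2 on chromosome 10 at 80737037 to 80754110 (minus strand). Lmnb1 had 1132 normalized counts on the soft plate, 1117 on the intermediate and 1217 on the stiff one. Its stiff to soft ratio was 0.10 with an interval from -0.01 to 0.22, and -0.04 with the length and GC fit subtracted. Lmnb2 had 655, 659 and 689 in the same order. Its stiff to soft ratio was 0.07 with an interval from -0.09 to 0.23, and -0.18 with the fit subtracted. Before that subtraction neither B-type lamin differed between stiff and soft plates beyond counting error, and after it Lmnb2 lay outside its interval. Between stiff and intermediate Lmnb1 was higher by 0.12 (0.01 to 0.24), and by 0.03 with the fit subtracted. Marchf3, on the strand opposite to Lmnb1, overlaps it and had 576 to 653 reads, and the strand setting of the counting is not stated in the sources used here.

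**Figure D2:**
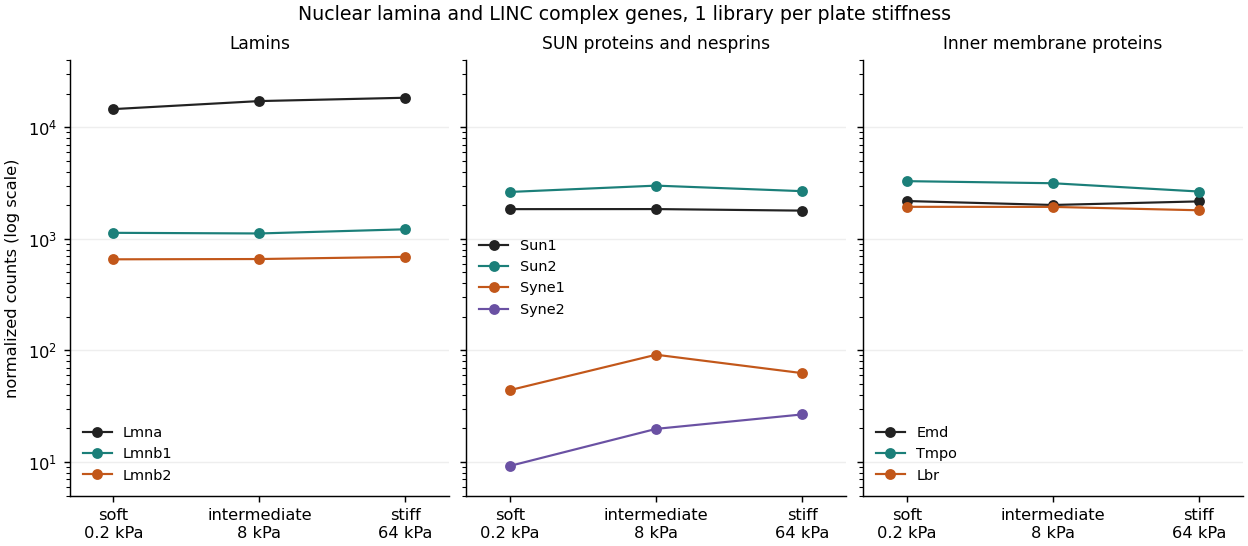
Normalized counts (log y axis) of the 10 genes in the soft, intermediate and stiff library, with 1 point per library and lines joining the points of a gene. Lmna goes from 14543 to 18388 while Lmnb1 and Lmnb2 stay within 1117 to 1217 and 655 to 689, and Syne1 and Syne2 lie far below the SUN genes.

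The balance of A-type and B-type lamin was computed within each library from reads per kb of canonical transcript, which lets levels of different genes be compared. Lmna stood at 162 RPKM (reads per kb, scaled to library size) at 0.2 kPa, 188.8 at 8 kPa and 197 at 64 kPa. Lmnb1 stood at 13.4 to 14.3 and Lmnb2 at 7.31 to 7.46. Levels per length depend on the length used. Over the merged length of all annotated exons Lmna stood at 89.8 in the soft library and Sun1 at 6.28, against 15.5 by canonical length. Changes between libraries within a gene do not depend on it. Lmna over the sum of Lmnb1 and Lmnb2 was 7.65 in the soft library (95% counting interval 7.28 to 8.04), 9.09 in the intermediate (8.67 to 9.53) and 9.07 in the stiff library (8.64 to 9.51). The soft interval overlapped neither of the others, and the intermediate and stiff intervals overlapped almost entirely. By merged exon length the ratio was 5.14, 6.11 and 6.09.

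On the log2 scale this ratio was higher by 0.25 on intermediate plates (interval 0.15 to 0.35) and by 0.24 on stiff plates (0.14 to 0.34) than on soft plates. Stiff against intermediate differed by -0.004 (-0.10 to 0.09). The result did not rest on 1 B-type lamin: over Lmnb1 alone the stiff to soft change was 0.23, and over Lmnb2 alone 0.27. It was smaller with the length and GC fit of each gene subtracted, at 0.16 for stiff to soft and 0.20 for intermediate to soft. Lmnb1 over Lmnb2 was 1.87, 1.84 and 1.92 in the soft, intermediate and stiff library, with overlapping intervals.

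Sun1 and Sun2 are the inner membrane side of the LINC complex. Sun1 is on chromosome 5 at 139185970 to 139235606 (plus strand) and Sun2 on chromosome 15 at 79608271 to 79626768 (minus strand). Sun1 had 1845 normalized counts (soft), 1848 (intermediate) and 1789 (stiff). All 3 of its ratios had intervals that included 0, the widest reaching from -0.14 to 0.05. After subtraction of the length and GC fit its stiff to soft ratio went from -0.04 to -0.144, just outside that interval. Sun2 had 2632 normalized counts on the soft plate, 2998 on the intermediate and 2675 on the stiff one. It was highest at the middle stiffness. Its log2 ratio was 0.19 for intermediate to soft (interval 0.11 to 0.26) and -0.16 for stiff to intermediate (-0.24 to -0.09). Subtracting the length and GC fit gave 0.07 and -0.29, both outside the intervals. Stiff and soft plates differed by 0.02 (-0.06 to 0.10), which became -0.03 under 2 of 3 other scalings and -0.21 with the fit subtracted. Per length, Sun2 was the more abundant of the pair, by a factor of 1.70 at 0.2 kPa, 1.93 at 8 kPa and 1.78 at 64 kPa.

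Syne1 and Syne2 encode nesprin-1 and nesprin-2, giant spectrin-repeat proteins whose long forms bind actin. Syne1 is on chromosome 10 at 4970266 to 5501482 (minus strand; 146 exons), and Syne2 on chromosome 12 at 75864908 to 76157700 (plus strand; 115 exons). The last coding bases of both are shown because they encode the end of the KASH tail that a SUN protein grips. They are the sense strand, 5′ to 3′, of chr10:4972007-4972036 (minus strand) and chr12:76156789-76156818 (plus strand), with the last codons and the stop codon in capitals.
Syne1: agatataccaacggtCCTCCTCCACTCTGA
Syne2: cggtacaccaacgggCCACCTCCCACCTAG
Among annotated transcripts with a complete coding end, 2 of 4 for Syne1 and 4 of 5 for Syne2 end in these bases. Annotated coding sequences run from 2463 to 26400 nt for Syne1 and from 4933 to 20625 nt for Syne2, and the counts per gene do not tell long, short or KASH-less forms apart.

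Syne1 had 43 reads (soft), 97 (intermediate) and 61 (stiff), or 44.1, 91.4 and 62.6 normalized counts. The intermediate library was the highest. Its ratio was 1.04 for intermediate to soft (interval 0.52 to 1.61) and -0.54 for stiff to intermediate (-1.03 to -0.07), while stiff to soft was 0.50 with an interval from -0.08 to 1.10. The length and GC fit at 28591 nt was itself 0.73 for intermediate to soft and 0.90 for stiff to soft. Subtracting it left 0.31 and -0.40, so the sign of the stiff to soft ratio turned. The fit holds genes of all levels. Among the 55 genes of 10000 nt and over at a mean of 10 to under 100, where both nesprins lie, the medians were lower, at 0.29 for intermediate to soft and 0.06 for stiff to soft, so the size of this subtraction is uncertain for them.

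Syne2 had 9 reads on the soft plate, 21 on the intermediate and 26 on the stiff one. The stiff to soft ratio was 1.44 with an interval from 0.39 to 2.81, and 0.64 with the fit subtracted. The step from soft to intermediate, at 1.02, had an interval from -0.09 to 2.41, and the step from intermediate to stiff, at 0.41, one from -0.46 to 1.33. At this depth neither single step could be told from 0.

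Per canonical length the 2 nesprin genes were far below the SUN genes. Reads from shorter forms would make these levels, and the ratios below, too low. Syne1 stood at 0.059 to 0.12 and Syne2 at 0.016 to 0.045 RPKM, against 14.4 to 15.5 for Sun1 and 25.7 to 29.5 for Sun2. Syne1 and Syne2 together over Sun1 and Sun2 together gave 0.0018 at 0.2 kPa, 0.0035 at 8 kPa and 0.0031 at 64 kPa. The log2 change of this ratio from soft to stiff was 0.80 (0.29 to 1.30). With Syne1 alone it was 0.51 with an interval that included 0 (-0.06 to 1.07), so the change beyond counting error rests on the few reads of Syne2. For both nesprins together it was 0.12 with the length and GC fit of each gene subtracted. From soft to intermediate it was 0.94 (0.46 to 1.42), and 0.35 with the fit subtracted. Dync1h1, the dynein heavy chain gene, with another very long transcript of 16498 nt, had 1266 to 2973 reads, and the spectraplakin genes Macf1 (23537 nt) and Dst (23201 nt) had 322 to 448 and 155 to 240.

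Emd encodes emerin, a LEM-domain protein that binds lamin A and a chromatin bridging factor. It lies on chromosome X at 73298286 to 73305169 (plus strand). Emd had 2182 normalized counts (soft), 2011 (intermediate) and 2165 (stiff). It was lowest at the middle stiffness, the opposite of Sun2. Its ratio was -0.12 for intermediate to soft (interval -0.20 to -0.03) and 0.11 for stiff to intermediate (0.02 to 0.19). Stiff and soft differed by -0.01 (-0.10 to 0.08), and by 0.005 with the length and GC fit subtracted.

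Tmpo encodes the thymopoietins or LAP2 proteins, LEM-domain proteins of which the alpha form binds A-type lamin in the nucleoplasm and membrane-bound forms bind B-type lamin. It lies on chromosome 10 at 90983375 to 91017177 (minus strand). Tmpo had 3288 normalized counts on the soft plate, 3150 on the intermediate and 2655 on the stiff one, so it was lowest on the stiff plate. Its stiff to soft ratio was -0.31 (interval -0.38 to -0.23), and 10.6% of all genes tested had a lower one. Most of it lay between 8 and 64 kPa, where the ratio was -0.25 (-0.32 to -0.17), against -0.06 (-0.13 to 0.01) between 0.2 and 8 kPa. With the length and GC fit subtracted the stiff to soft ratio was -0.35.

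Lbr encodes the lamin B receptor, which binds B-type lamin and heterochromatin protein 1 and also acts as a sterol reductase. It lies on chromosome 1 at 181641631 to 181672984 (minus strand). Lbr had 1936 normalized counts at 0.2 kPa, 1933 at 8 kPa and 1803 at 64 kPa. The stiff library was the lowest, by -0.10 against soft (-0.20 to -0.01) and -0.10 against intermediate (-0.19 to -0.01). Lmna was thus higher, and Tmpo and Lbr lower, in the stiff than in the soft library. Lmna over Lbr, per length, was 11.3 (soft), 13.3 (intermediate) and 15.3 (stiff), and Lmna over Tmpo was 5.12, 6.30 and 8.01. By merged exon length Lmna over Tmpo was 8.14, 10.03 and 12.75. No pair of intervals overlapped in either series, and the stiff to soft change was 0.44 (0.34 to 0.54) for the first and 0.65 (0.57 to 0.73) for the second. With the length and GC fit subtracted the stiff to soft ratio was 0.08 for Lmna, -0.16 for Lbr and -0.35 for Tmpo.

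**Figure D3:**
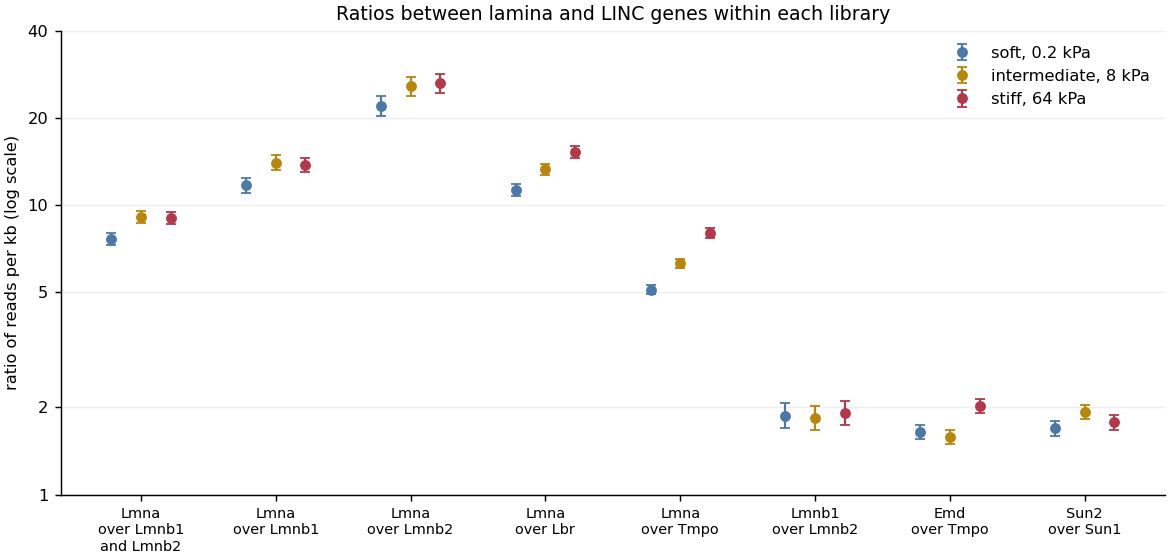
Ratios of reads per kb between pairs of lamina and LINC genes (log y axis) in the soft, intermediate and stiff library, with 1 point per library and 95% counting intervals. Lmna over the B-type lamins is 7.65, 9.09 and 9.07, Lmna over Tmpo is 5.12, 6.30 and 8.01, and Lmnb1 over Lmnb2 has overlapping intervals throughout.

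Counted by size, few members stood out. A log2 ratio of 0.5 in size was reached by 0 of the 9 members between stiff and soft, where 11.8% of all 11873 genes were that much higher and 3.77% that much lower. Between intermediate and soft Syne1 alone passed, higher, where 3.94% of all genes were higher and 0.657% lower. Between stiff and intermediate Syne1 alone passed, lower, where 5.42% of all genes were higher and 3.42% lower. At a size of 0.25 Lmna and Syne1 were higher and Tmpo lower on stiff than on soft plates. That was 2 of 9 members against 23.7% of all genes higher and 1 of 9 against 15.2% lower. Both steps reached 0.25 in the same direction for 0 members, against 5.73% of all genes upward and 0.707% downward. These shares do not set the members apart from all genes.

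The median stiff to soft ratio of the 9 members was 0.02, against 0.005 over all genes. The median intermediate to soft ratio was 0.002 against 0.01, and stiff to intermediate it was -0.05 against 0.01. Of the 9, 6 had a stiff to soft ratio smaller in size than the median size over all genes, 0.19. With the length and GC fit subtracted 7 of the 9 were lower in the stiff than in the soft library, with a median of -0.16, against 50.5% of all genes and a median of -0.003, and Lmna and Emd were higher, at 0.08 and 0.005.

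**Figure D4:**
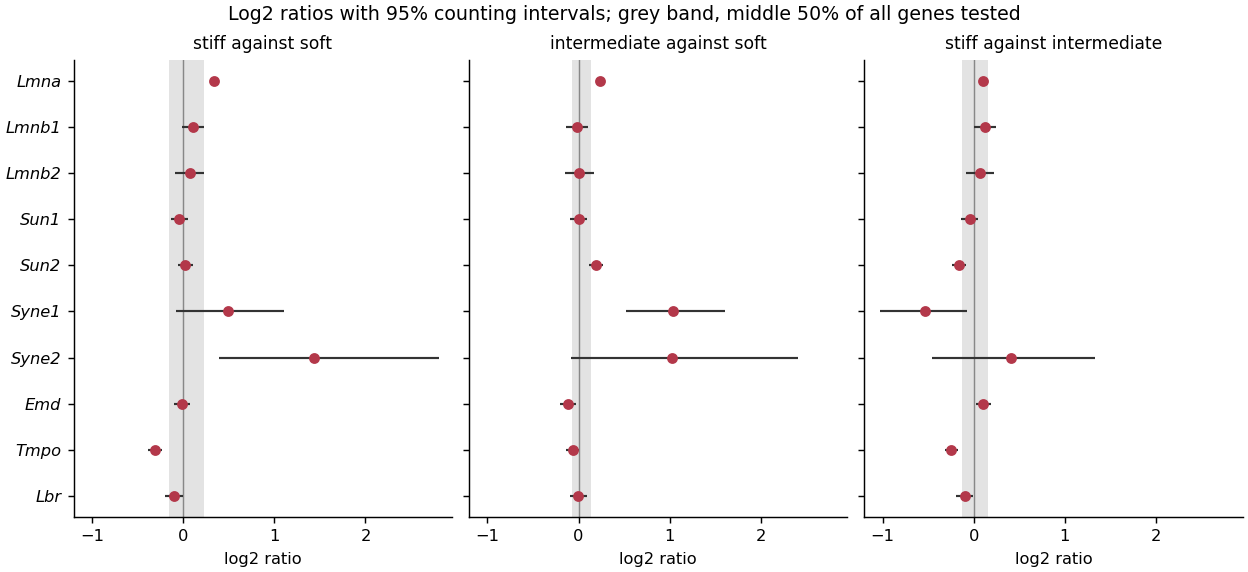
Log2 ratios (x axis) of the 10 genes in the 3 comparisons, with 95% counting intervals as lines and the middle 50% of all genes tested as the grey band. Between stiff and soft, Lmna at 0.34 and Tmpo at -0.31 lie outside the band with narrow intervals, and Syne1 and Syne2 have intervals that are far wider than those of the other members.

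Other genes of the nuclear envelope were read from lists. Of 14 further LINC genes and their torsin regulators, 10 passed the minimum mean. Between stiff and soft 2 of them were higher by at least 0.5 and 0 lower, against 11.8% and 3.77% of all genes, with a median of 0.07. They were Syne3 and Irag2. Syne3 encodes nesprin-3, which links to intermediate filaments through plectin, and had 187 reads on the soft plate, 275 on the intermediate and 286 on the stiff one. Its stiff to soft ratio was 0.61 (0.34 to 0.89), and 0.38 with the length and GC fit subtracted. Irag2, a KASH-like protein of lymphoid cells, had 38 reads in the soft and 77 in the stiff library (interval of the log2 ratio 0.44 to 1.62), beside the higher macrophage markers given above, whose part was not tested. The lowest was Spag4, a SUN protein best known from testis, at -0.44, with 68 reads on soft and 50 on stiff plates and an interval that included 0. Tor3a, a torsin, was lower by -0.50 between stiff and intermediate. Sun3, Sun5 and Syne4 had no read.

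The cytoplasmic partners of nesprins (actin bundlers, spectraplakins and motors) were listed with 13 genes. Of these, 5 were higher by at least 0.5 and 0 lower between stiff and soft, against 11.8% and 3.77% of all genes, and their median ratio was 0.39. Plec, which encodes the plectin that binds nesprin-3, had 1410 normalized counts at 0.2 kPa, 2381 at 8 kPa and 3356 at 64 kPa. Its ratio was 1.25, on 1375 and 3273 reads, but 0.20 with the length and GC fit subtracted, for a transcript of 15003 nt. With the same subtraction Dync1h1 went from 1.23 to 0.20, the spectraplakin Dst from 0.63 to -0.21 and the dynein adaptor Bicd2 from 0.59 to 0.28. Fscn1, the actin bundler fascin with a transcript of 2688 nt, stayed at 0.77 from 0.89. Plec, Dync1h1 and Dst are longer than 10000 nt. The 315 genes of 10000 nt and over had a median of 0.32 and an upper quartile of 0.70. More than that upper quartile was subtracted from each, so the size of the subtraction is uncertain for them. With the fit subtracted the list's median was 0.17, and Fscn1 was the only one of 13 past 0.5, where 7.69% of all genes were higher by that much and 3.99% lower. That share is near the background. The lowest of the list was Fhod1, a formin that binds nesprin-2, at -0.12 (-0.25 to 0.01), and at -0.36 with the fit subtracted.

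All 7 genes of a list for lamin processing (farnesylation, the CaaX box, prenylcysteine breakdown and prelamin A binding) were within 0.5 in each comparison, as were 84.4% of all genes between stiff and soft. Between stiff and soft they went from -0.10 for Pcyox1, which breaks down prenylcysteines, to 0.19 for Narf, which binds prelamin A, with a median of -0.03. Zmpste24, the protease that matures prelamin A, had 5461 normalized counts (soft), 5288 (intermediate) and 5222 (stiff). All 12 further inner membrane genes were within 0.5 as well, from -0.14 for Nrm to 0.31 for Tmem38a.

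Of 11 heterochromatin genes, 7 had a stiff to soft ratio below 0, against 48.9% of all genes, and 4 above, with a median of -0.15. A size of 0.5 was reached by 0 of them, against 11.8% of all genes higher and 3.77% lower. Cbx5, the heterochromatin protein 1 alpha that Lbr binds, had 5056 normalized counts on the soft plate, 4869 on the intermediate and 4154 on the stiff one, a stiff to soft ratio of -0.28 (-0.34 to -0.22). Cbx1 and Cbx3, its paralogs, stood at -0.22 and -0.17, and the methyltransferase gene Suv39h2 was the lowest at -0.29. The highest was Prr14, a tether of heterochromatin protein 1 to the lamina, at 0.47 (0.32 to 0.61), followed by the methyltransferase genes Ehmt1 at 0.43 (0.28 to 0.58) and Setdb1 at 0.17 (0.03 to 0.31). Subtracting the length and GC fit gave -0.33 for Cbx5, -0.11 for Cbx1, -0.05 for Cbx3, -0.22 for Suv39h2, 0.40 for Prr14, 0.22 for Ehmt1 and 0.11 for Setdb1. Of the 11 genes 8 were then below 0, against 50.5% of all genes, with a median of -0.12.

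Of 27 nuclear pore genes above the minimum mean, 3 were higher by at least 0.5 on stiff than on soft plates and 0 lower, with a median of -0.02. That share is near the 11.8% of all genes that were higher. The 3 were Nup214 at 0.94, Pom121 at 0.83 and Tpr at 0.57, and with the fit subtracted they stood at 0.60, 0.41 and 0.51. Nup37 was the lowest at -0.45. Beyond counting error 10 of the 27 were higher and 12 lower, against 31.3% and 25.9% of all genes.

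Lmnb1, Tmpo and Lbr are also known to follow the cell cycle, so proliferation genes were read beside them. Of 18, 15 had a stiff to soft ratio below 0, against 48.9% of all genes, and the median was -0.25. None of the 18 passed 0.5 in size, against 11.8% of all genes higher and 3.77% lower. For intermediate over soft the median was -0.03. For stiff over intermediate it was -0.27, and there Cdc20 was lower by -0.50. Tmpo, at -0.31, -0.06 and -0.25 in these comparisons, lay close to those medians. Lbr, at -0.10, -0.002 and -0.10, had smaller ratios of the same sign, and Lmnb1 stood at 0.10, -0.02 and 0.12. The lowest of the list between stiff and soft was Bub1 at -0.48 and the highest Mki67 at 0.19. The part of proliferation in the value of Tmpo was not tested.

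**Figure D5:**
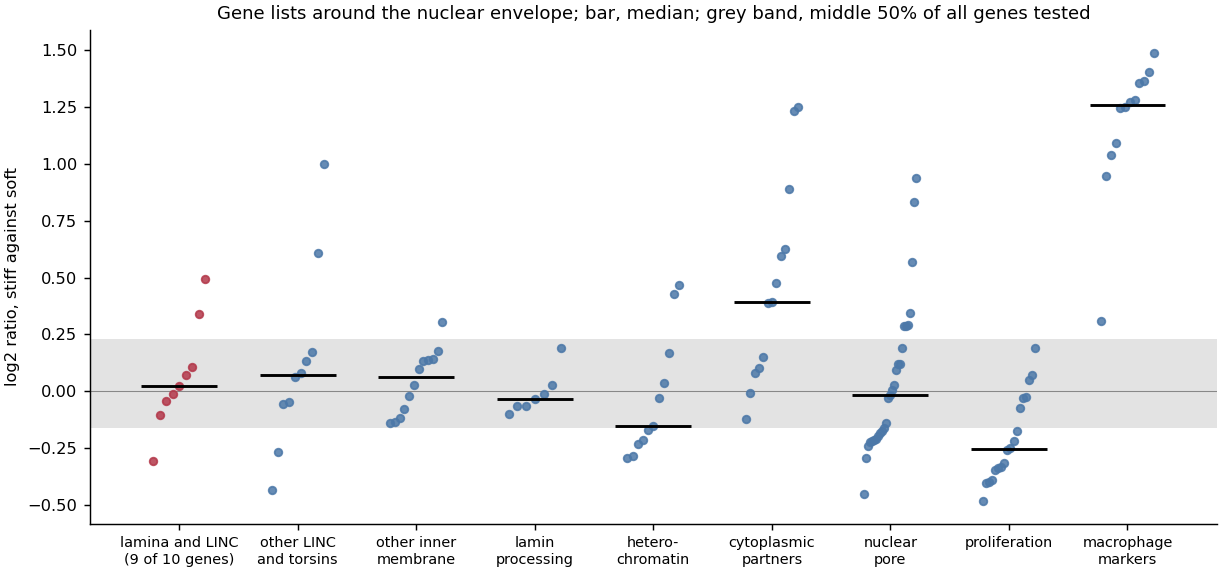
Stiff to soft log2 ratios (y axis) of genes above that minimum mean in 9 lists, with 1 point per gene, bars at the medians and the middle 50% of all genes tested in grey. The lamina and LINC genes have a median of 0.02, the cytoplasmic partners 0.39, the proliferation genes -0.25 and the macrophage markers 1.26.

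Among the 5 genes most like Lmna over the 2 steps, by Euclidean distance of the pair of log2 ratios over 3 libraries, were Pogz, Erbb2, Tcf20 and Ahctf1. Of 10651 genes compared, all with a mean of at least 100, 389 lay within 0.1 of Lmna. For Lmnb1 the 5 nearest were Iffo1, Pkm, Mbnl2, Thop1 and Atp6v0d1, with 1323 genes within 0.1. With 3 libraries such likeness is common and is given as a description. Iffo1, listed for Lmnb1, went from 314.7 to 310.1 and 338 as stiffness increased, in normalized counts.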

How the data were processed

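Per the labels' protocols, RNA was sequenced from 3 stranded mRNA libraries. Per the submitters' processing notes, bcl2fastq 2.20.0, STAR 2.7.9a, featureCounts of Subread 2.0.1 and DESeq2 1.34.0 were used with build GRCm39. The annotation and strand setting are not given in the sources used here. The deposited signal values are gene counts that the authors divided by 1 size factor per library. The 3 deposited files were identical. Whole reads were recovered by dividing by the smallest positive value (100.0% of values whole within 0.001), and 1 read was worth 1.03, 0.943 and 1.03 normalized counts (soft, intermediate, stiff). A count of 0 allows up to 3 reads. With 1 library per group no test was run.

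Genes, coordinates, lengths and GC contents were matched by symbol to GENCODE vM39 (GRCm39), which matched 98.2% of the 11873 genes above the minimum mean of 50. The length and GC fit was local, linear and robust, over the 300 closest of 13923 genes at a mean of 10 or more. It and the fold rule were checked on simulated data. Intervals of ratios between genes use the delta method on read counts. Named genes were all members, genes of the nuclear envelope, partner and proliferation lists past 0.5 in any comparison, each such list's highest and lowest gene, and the 5 genes nearest to Lmna and Lmnb1, of which 1 is not reported here. Zmpste24, Cbx1, Cbx3, Cbx5 and Ndc1 were added to these, with Ehmt1, Setdb1, Macf1 and Nup98, after their values had been seen. Of 30 nuclear pore symbols, 28 were in the table. The members, lists and alternatives were chosen with earlier results of these data known. Computation used scipy 1.17.1, numpy 2.4.6 and pandas 2.3.3 under Python 3.11.15, and matplotlib 3.10.9 drew the figures.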

Additional observations from a re-analysis of the deposited data

How the results depend on the processing

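No paired analysis was possible because each group has 1 library, and for the same reason leaving out a replicate and a count test could not be run. Members past a log2 ratio of 0.5 between stiff and soft numbered 0, but 1 with a pseudocount of 0.1 (Syne1), 3 at a size of 0.25, and 1 at a minimum mean of 10 and 1 with no filter (Syne2). Of all 11873 genes, 1408 were higher and 452 lower with that pseudocount, and 2816 and 1805 at 0.25. At a minimum mean of 10 it was 1922 and 985 of 14291, and with no filter 4787 and 4276 of 56833. Between intermediate and soft the count of 1 became 0 with the length and GC trend subtracted, 2 at a minimum mean of 10 and 2 with no filter. Of all genes, 246 were higher and 78 lower of 11655, 864 and 502 of 14291, and 3973 and 3547 of 56833 in these settings. Between stiff and intermediate the count of 1 became 0 with a pseudocount of 10 and 0 at a size of 1. Of all 11873 genes, 607 were higher and 363 lower with that pseudocount, and 98 and 50 at that size. Members ordered over both steps numbered 0, but 1 at a minimum mean of 10 and 1 with no filter (Syne2). The change of the nesprin to SUN ratio, 0.80 between stiff and soft, was 1.53 with Syne2 alone and 0.51 with Syne1 alone. With the trend subtracted, a setting added for these ratios after the data were seen, it was 0.12, and between intermediate and soft 0.35. Between stiff and intermediate, -0.14 became 0.55 with Syne2 alone. The stiff to intermediate ratio of Lmna reversed to -0.0299 with the trend subtracted. The filters, sizes and single genes change what is counted by construction, and the cause of the other changes was not tested. The change of the lamin ratio between libraries stayed inside its counting intervals under every alternative run, whereas its level did not by merged exon length. Of 180 member ratios under other settings, 165 stayed inside their counting intervals, and 16 changed sign, 9 of them with the trend subtracted. Under other scalings (3 tried), with shifts of -0.058 to -0.008 between stiff and soft, Lmna was at 0.28 with 2 of them. Levels per length by merged exon length lay outside their counting intervals for 9 of 10 members. Depth limits Syne1 and Syne2, with 9 to 97 reads.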

Other observations

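The Y complex is the scaffold of the nuclear pore that also sits at kinetochores, and its genes were picked out from the nuclear pore list after their values had been seen. The 8 genes picked, Nup160, Nup133, Nup107, Nup85, Nup43, Nup37, Seh1l and Sec13, each had a stiff to soft ratio below 0, from -0.45 for Nup37 to -0.14 for Nup160, with a median of -0.22 and all 8 intervals below 0. Of all genes 48.9% had a ratio below 0 and 25.9% an interval below 0, and a choice made on the values cannot be read against those shares. Nup98, which encodes the Y complex subunit Nup96 together with a further pore protein, was not among those picked and was higher, at 0.29 (0.20 to 0.38), or 0.11 after subtraction of the length and GC trend. The same subtraction left the 8 picked genes below 0, at a median of -0.18. Ahctf1, which brings this complex to chromatin, was higher, at 0.35 (0.22 to 0.47). The pores' cytoplasmic filament gene Nup214 stood at 656 normalized counts at 0.2 kPa, 984 at 8 kPa and 1259 at 64 kPa, and the membrane anchor Pom121 at 929, 1196 and 1653. Ndc1, another membrane anchor, was lower on stiff plates, at -0.30 (-0.36 to -0.23), with 4934, 5029 and 4021 normalized counts in the same order.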
